A study of Mus musculus with 6 samples.

Results

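Immune cells from mammary tumours of Mtdh knockout (KO) mice were compared between mice rebuilt with Mtdh KO marrow (labelled KO_BM to KO_Mice) and mice rebuilt with wild-type (WT) marrow (WT_BM to KO_Mice). Both libraries were chosen by their labels. They hold 13059 of the 37988 cells kept across the 6 libraries of the series, 7654 with KO marrow and 5405 with WT marrow. In both, female KO hosts were irradiated, given donor marrow, and 8 weeks later injected with Py8119, a mouse mammary tumour cell line. Tumours were taken 4 weeks after that, live cells positive for the leukocyte antigen CD45 were sorted, and about 15000 cells per library were loaded for droplet 3' sequencing. The loss of Mtdh in the host is therefore shared, and the donor marrow is what differs. A pair with the same donor marrow in WT hosts and a pair of intact KO and WT mice are given beside it as values.

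Each side is 1 library, so the spread between mice could not be measured and marrow genotype and library cannot be told apart. No test was run between cells. The intervals below are 95% intervals that cover counting error only. The number, age and strain of the mice behind a library, and the part of Mtdh that was deleted, are not given in the sources used here.

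Mtdh encodes metadherin, a protein of the endoplasmic reticulum membrane and nucleus that binds the nuclease Snd1 and has been studied as a promoter of breast tumour growth. In a marrow chimera the blood-forming cells come from the donor, while stroma, vessels and other tissues stay those of the host, and some long-lived tissue macrophages can outlast irradiation. Interferon gamma, made mainly by T and NK cells, acts in part through the transcription factor Irf1. In macrophages and tumour cells it induces guanylate-binding proteins, the chemokines Cxcl9 and Cxcl10, and, through Ciita and Nlrc5, the MHC class II and class I genes that present antigen.

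The KO-marrow library held 96375286 UMIs (counted transcript molecules) in 8343 barcodes, and the WT-marrow library 121627871 UMIs in 5964 barcodes. Kept cells had a median of 10549 UMIs and 2770 genes with KO marrow, against 18516 UMIs and 3810 genes with WT marrow. The libraries shared 14 barcodes. Cells were assigned to classes by UMIs of defining marker genes, with thresholds set after looking at marker levels. In the KO-marrow library 1.14% of cells passed the gates of more than 1 lineage and 5.68% passed none, against 0.370% and 4.38% in the WT-marrow library.

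Mtdh itself was lower with KO marrow in all gated immune classes with at least 20 cells in both libraries. In macrophages it stood at 12.7 CPM (UMIs of the gene scaled to all UMIs of the class; 766 UMIs, interval 11.8 to 13.6) with KO marrow, against 109.0 CPM (9632 UMIs, 106.9 to 111.2) with WT marrow, a log2 ratio of -3.11. CD8 T cells held 11.7 against 84.9 CPM, and neutrophils 7.17 against 85.9 CPM. The smallest gap among these classes was in NK cells, with 31.4 CPM (18.9 to 49.1) with KO marrow against 85.9 CPM (61.6 to 116.5) with WT marrow, and the mature dendritic cells were next with 16.5 against 46.7 CPM. Free RNA, estimated from genes that a class should lack, would account for 15.6% of the Mtdh level in KO-marrow macrophages and 63.0% of that in KO-marrow neutrophils. The gene (ENSMUSG00000022255) spans positions 34082694 to 34145624 of the plus strand of chromosome 15 in mm10. Its partner Snd1 stood at 52.3 CPM with KO marrow and 44.6 CPM with WT marrow in macrophages.

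Macrophages with a UMI of Lyve1, Timd4, Vsig4 or Cd163, genes of tissue-resident macrophages, were looked at apart. Their Mtdh level was 13.7 CPM (9.37 to 19.3) with KO marrow and 118.8 CPM (113 to 125) with WT marrow, against 12.6 and 107.4 CPM in the macrophages without such a UMI. With WT marrow the level was thus slightly higher in the cells with such a UMI, and the counting intervals did not overlap (105 to 109.7 without). Cells were not thinned for this split, so deeper cells show such a UMI more readily. The difference was not tested. Mesenchymal-like cells, which passed the sort but carry Krt8 and Sparc, held 398 CPM with KO marrow (382 to 414) and 365 CPM with WT marrow (355 to 376), and differed by a log2 ratio of 0.12 (0.05 to 0.20). In the KO-marrow library host and marrow were both Mtdh KO, whereas the injected tumour line came from neither. The origin of these cells was not tested.

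**Figure D1:**
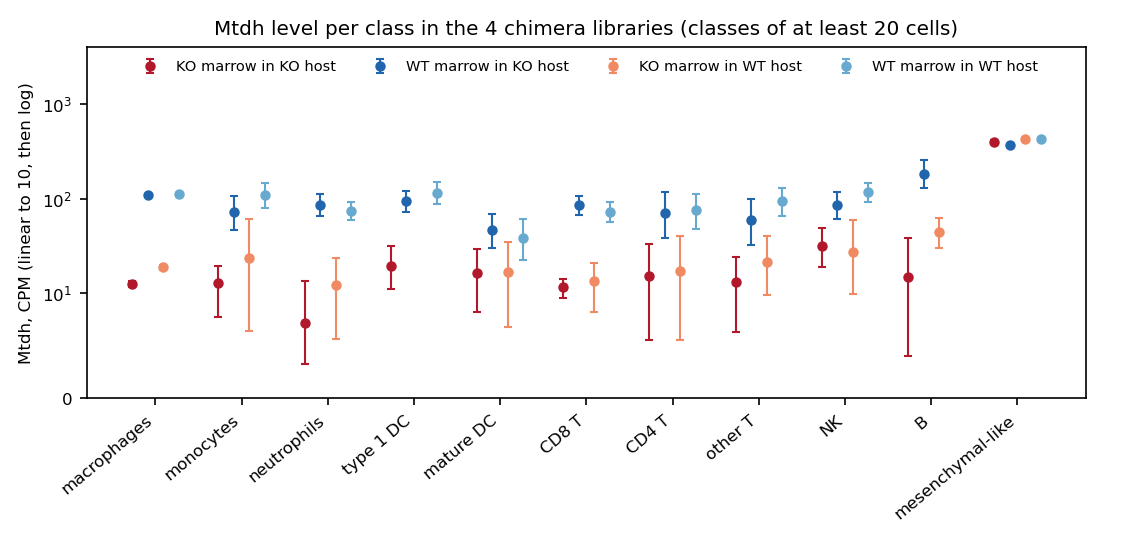
Mtdh level in CPM of the class total (axis linear to 10, then logarithmic) for the 4 chimera libraries, with 95% counting intervals, in classes of at least 20 cells. In KO hosts the KO-marrow points lie between 7.17 and 31.4 CPM in the immune classes shown and the WT-marrow points between 46.7 and 184 CPM, while the mesenchymal-like cells lie at 398 and 365 CPM.

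The tumours of KO hosts with KO marrow held a larger share of T cells and monocytes and a smaller share of macrophages. CD8 T cells made up 15.4% of cells with KO marrow (1177 cells, interval 14.6 to 16.2) against 1.52% with WT marrow (82 cells, 1.21 to 1.88), 10.1 times as large a share (8.13 to 12.6). Monocytes, the circulating precursors of many macrophages, made up 3.15% (241 cells, 2.77 to 3.56) against 0.537% (29 cells, 0.360 to 0.770). Macrophages took 56.7% (4339 cells, 55.6 to 57.8) against 78.6% (4246 cells, 77.4 to 79.6). Shares add to a fixed total, so a larger share of one class lowers the others.

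The other lymphocyte classes held few cells. Regulatory T cells, defined by Foxp3, made up 0.758% with KO marrow (58 cells) against 0.111% with WT marrow (6 cells), and CD4 T cells 0.888% (68 cells) against 0.537% (29 cells). NK cells made up 0.849% (65 cells) against 0.463% (25 cells), and B cells 1.06% (81 cells) against 1.02% (55 cells), and the interval of the share ratio held 1 for B cells (0.740 to 1.46) but not for CD4 T cells (1.07 to 2.55) or NK cells (1.16 to 2.91). Gamma-delta T cells were 7 in each library. Of all T and NK cells, which were 19.96% of the KO-marrow library and 3.35% of the WT-marrow library, CD8 T cells formed 77.0% (74.8 to 79.1) against 45.3% (37.9 to 52.9), CD4 T cells 4.45% against 16.0% and NK cells 4.25% against 13.8%. Regulatory T cells were close on that scale, at 3.80% (2.89 to 4.88) against 3.31% (1.23 to 7.08). Their share ratio over all kept cells had an interval from 2.95 to 15.8.

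Among the other classes, neutrophils made up 6.72% (514 cells, 6.16 to 7.30) with KO marrow against 3.53% (191 cells, 3.06 to 4.06) with WT marrow. Dendritic cells of all kinds made up 2.48% against 1.41%. Among them, mature Ccr7 dendritic cells formed 1.18% against 0.685%, and type 1 cells, the cross-presenting subset, 0.679% against 0.500% with overlapping intervals. Plasmacytoid dendritic cells were 14 against 1. Mesenchymal-like cells formed 3.12% (239 cells) against 6.85% (370 cells). Of the macrophages, 3.92% with KO marrow and 2.47% with WT marrow lay within 1.5 times of the gate's threshold.

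**Figure D2:**
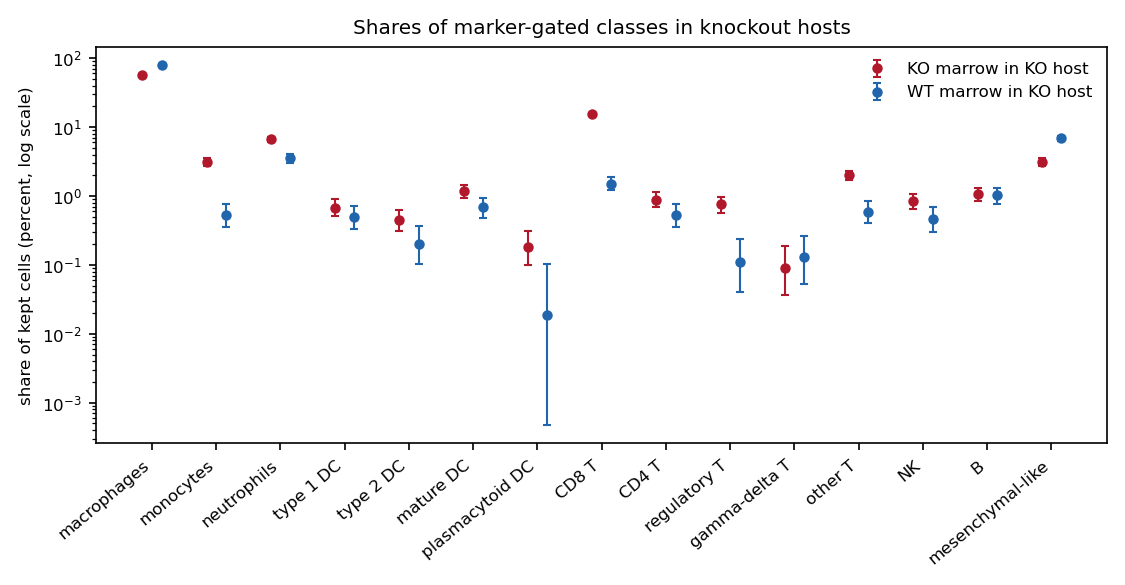
Share of kept cells in each marker-gated class (percent, logarithmic axis) for KO and WT marrow in KO hosts, with exact binomial 95% intervals. CD8 T cells stand at 15.4% with KO marrow against 1.52% with WT marrow, and macrophages at 56.7% against 78.6%.

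In WT hosts the same change of marrow gave other shares. CD8 T cells formed 4.13% with KO marrow and 2.16% with WT marrow, a log2 ratio of 0.93 (0.63 to 1.24) against 3.34 (3.02 to 3.66) in KO hosts. The macrophage shares in WT hosts were 66.4% and 66.98%, and the monocyte shares 0.471% and 0.786%. B cells differed there by a log2 ratio of 5.94 (4.51 to 7.37), with 4.02% (222 cells) against 0.0655% (4 cells), and by 0.06 in KO hosts. In intact KO and WT mice CD8 T cells formed 4.26% and 1.06% and macrophages 63.2% and 80.9%. Whether the marrow ratios differ between KO and WT hosts was not tested.

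Macrophages with KO marrow carried more transcript of interferon gamma response and antigen presentation genes and less of resident-type genes. Of 12354 genes with at least 50 UMIs in both libraries together, 1236 (10%) differed at least 2-fold. With KO marrow 593 of them stood higher (4.8%) and 643 stood lower (5.2%). The median log2 ratio of all genes was -0.09. Of 26 measured interferon gamma response genes, 23 were at least 2-fold higher and 0 at least 2-fold lower, with a median log2 ratio of 2.18. Summed over the list, the level was 6517 CPM with KO marrow and 1297 CPM with WT marrow. The list and the others below were drawn up with earlier results of these data known, so their direction is a description.

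Cxcl9, the chemokine that draws Cxcr3-positive T cells, stood at 1995 CPM with KO marrow and 184 CPM with WT marrow, a log2 ratio of 3.44 (3.41 to 3.46). Cxcl10, a ligand of the same receptor, held 657 against 208 CPM. Among the guanylate-binding proteins, GTPases that attack vacuoles of intracellular microbes, Gbp2b held 55.4 against 2.66 CPM, a log2 ratio of 4.38 (4.19 to 4.58). Gbp2 held 383 against 51.4 CPM and Gbp4 56.1 against 5.84 CPM. Nos2, inducible nitric oxide synthase, stood at 110 CPM against 7.86 CPM, a log2 ratio of 3.81 (3.69 to 3.92).

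The surface genes Ly6a and Ly6i stood at 885 against 89.7 CPM and 32.4 against 2.14 CPM. The transcription factor Irf1 was also higher, at 225 against 44.0 CPM, as was the feedback inhibitor Socs1 at 49.1 against 6.91 CPM. Cd274, which encodes the checkpoint ligand PD-L1, held 135 against 42.7 CPM, and Pdcd1lg2, which encodes PD-L2, 28.5 against 2.55 CPM. Irf8, a lineage factor of myeloid cells on the same list, was near level at 261 against 243 CPM.

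Genes of the MHC class II pathway were higher in all 10 measured cases, 7 of them at least 2-fold, with a median log2 ratio of 1.46. H2-Aa, an alpha chain, stood at 7532 CPM with KO marrow and 2474 CPM with WT marrow, the invariant chain Cd74 at 17254 against 6152 CPM, and their transactivator Ciita at 52.4 against 19.5 CPM. MHC class I and peptide loading genes were higher in 20 of 20 cases, 13 of them at least 2-fold, with a median of 1.30. The nonclassical chain H2-Q6 stood at 85.8 against 17.95 CPM, the peptide transporter Tap1 at 165 against 42.6 CPM and the classical chain H2-K1 at 2746 against 1084 CPM. B2m, the light chain, was less than 2-fold higher at 3804 against 2065 CPM. Of 21 type I interferon response genes 6 were at least 2-fold higher and 0 lower, with a median of 0.54, among them Isg15 at 196 against 87.5 CPM and Ifi205 at 42.9 against 9.63 CPM.

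**Figure D3:**
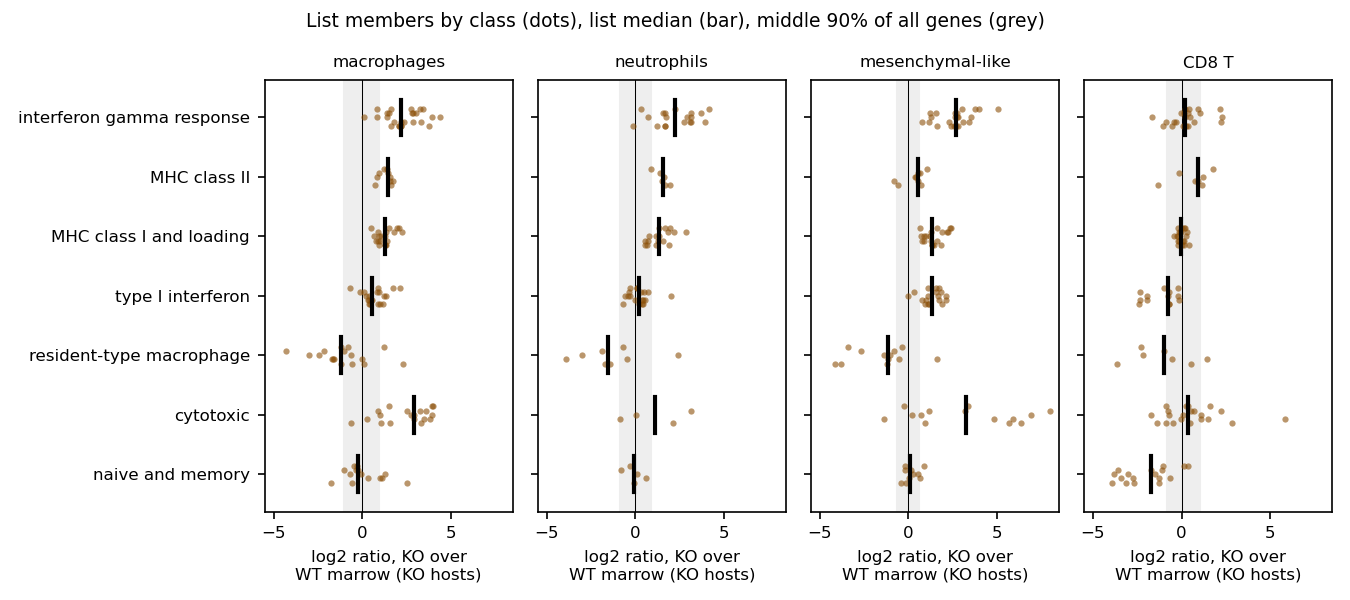
Log2 ratio of KO over WT marrow in KO hosts for each measured member of 7 gene lists (dots) with the list median (bar) in 4 classes; grey marks the middle 90% of all genes measured in that class. Interferon gamma response medians are 2.18 in macrophages, 2.24 in neutrophils, 2.67 in mesenchymal-like cells and 0.22 in CD8 T cells.

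The bases before the start sites of these genes are shown because known motifs of interferon-inducible and MHC genes lie there: the GAS motif TTCNNNGAA, the ISRE motif (GAAA, any 2 bases, GAAA) and the Y box CTGATTGG, the last shared by MHC class II promoters. Sequences are from RefSeq, build GRCm38.p6, for the 250 bases before the annotated start, read on both strands, and matches of different motifs were counted separately where they overlap. The stretch before Gbp2b lies at chr3:142594597-142594846 on the plus strand and holds an ISRE starting 137 bases before the start. The stretch before Irf1, at chr11:53769764-53770013 on the plus strand, holds a GAS 90 bases before the start, while the stretch before a second annotated Irf1 start holds none of the motifs. Cxcl9 holds a Y box 65 bases before its start and neither other motif. The stretch before Cxcl10, at chr5:92348890-92349139 on the minus strand, holds an ISRE at 213 and a Y box at 54 bases. The stretch before H2-Aa, at chr17:34287824-34288073 on the minus strand, holds a Y box at 51 bases. Capitals mark the motif.
Gbp2b: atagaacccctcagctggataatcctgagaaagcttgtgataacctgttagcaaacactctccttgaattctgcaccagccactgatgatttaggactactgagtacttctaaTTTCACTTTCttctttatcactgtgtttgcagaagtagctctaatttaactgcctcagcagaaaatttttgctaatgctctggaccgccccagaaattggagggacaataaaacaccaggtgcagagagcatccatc
Irf1: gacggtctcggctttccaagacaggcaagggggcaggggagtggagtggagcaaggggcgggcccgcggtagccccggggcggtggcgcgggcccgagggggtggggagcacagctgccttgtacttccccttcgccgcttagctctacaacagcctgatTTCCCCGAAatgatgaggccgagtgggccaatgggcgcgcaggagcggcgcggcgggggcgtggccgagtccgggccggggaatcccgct
Cxcl10: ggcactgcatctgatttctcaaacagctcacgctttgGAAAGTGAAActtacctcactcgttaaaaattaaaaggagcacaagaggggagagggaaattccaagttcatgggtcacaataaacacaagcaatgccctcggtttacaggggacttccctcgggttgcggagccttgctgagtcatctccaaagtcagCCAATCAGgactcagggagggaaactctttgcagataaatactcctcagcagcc
H2-Aa: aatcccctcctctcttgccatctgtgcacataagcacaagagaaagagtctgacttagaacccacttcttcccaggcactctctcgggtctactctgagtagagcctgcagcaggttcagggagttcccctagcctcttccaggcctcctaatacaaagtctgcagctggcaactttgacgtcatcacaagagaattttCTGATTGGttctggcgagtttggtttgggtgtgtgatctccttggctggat
Of the 28 interferon gamma response genes 15 were matched in the table, 10 of them with an ISRE (66.7%) and 7 with a GAS (46.7%), against 3.46% and 8.13% of all 27025 genes. Of 7 matched MHC class II genes 3 held the Y box, 1 the GAS and 0 the ISRE, against 4.43% of all genes for the Y box. The Y box was not particular to them. It was held by 6 of 17 matched MHC class I and peptide loading genes (35.3%) and 3 of the 15 interferon gamma response genes (20%). Of those 17 class I genes, 3 held an ISRE and 2 a GAS. The stretches before Retnla, Fcrls and Gzmf, not printed here, held none of the motifs. Of 15 matched resident-type macrophage genes 1 held an ISRE and 0 held either other motif. A match is a stretch of letters, and no binding was measured here.

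Resident-type macrophage genes were mostly lower with KO marrow. Of 17 measured members 10 were at least 2-fold lower and 2 at least 2-fold higher, with a median log2 ratio of -1.18. Fcrls, an Fc receptor-like gene of resident macrophages, stood at 117 CPM with KO marrow and 939 CPM with WT marrow, a log2 ratio of -3.01 (-3.04 to -2.97). Cbr2, a carbonyl reductase, held 44.6 against 243 CPM, Gas6, a ligand for clearing dead cells, 32.5 against 146 CPM, and F13a1, a coagulation factor subunit, 152 against 495 CPM. The folate receptor Folr2 held 81.0 against 255 CPM and the transcription factor Maf 166 against 498 CPM.

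The list did not move as one. Ccl8, a chemokine counted on the list, was higher with KO marrow at 795 against 161 CPM. Lyve1 and Ccl24 were level, at 9.12 against 8.41 CPM and at 10.9 CPM in both libraries. The scavenger receptor Cd163 held 3.11 against 4.77 CPM and the mannose receptor Mrc1, a gate gene, 390 against 670 CPM. Vsig4, a complement receptor, stood at 0.529 against 10.5 CPM, and 1 cell gave 68.8% of its UMIs in the KO-marrow library.

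Outside the lists, the genes furthest below with KO marrow included Hpgd, which degrades prostaglandins, at 1.06 against 25.1 CPM. The proteoglycan Cspg4 stood at 1.44 against 16.9 CPM and the Ras activator Rasgrp3 at 0.612 against 8.502 CPM. Of the genes furthest above, Retnla, a secreted product of alternatively activated macrophages, stood at 150 against 3.09 CPM, a log2 ratio of 5.60 (5.42 to 5.78), and came from 320 cells with KO marrow and 49 with WT marrow. Jchain, a plasma cell gene, was also far above at 17.0 against 0.0792 CPM, but 1 cell gave 73.2% of it.

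Alternative activation genes did not share a direction, with 4 of 14 at least 2-fold higher and 2 at least 2-fold lower. Beside Retnla, Arg1, the arginase of suppressive macrophages, held 2907 against 1798 CPM, while the chitinase-like gene Chil3 held 55.5 against 287 CPM. Of 11 arginine and tryptophan enzyme genes 4 were at least 2-fold higher and 0 lower, among them the itaconate enzyme Acod1 at 104 against 7.78 CPM and the arginine synthesis enzyme Ass1 at 79.1 against 12.3 CPM. The complement components C3 and Cfb stood at 173 against 24.5 CPM and 64.0 against 13.3 CPM, whereas the complement and Fc receptor list as a whole had a median of -0.04.

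Most other programmes had fewer genes past 2-fold. Of 19 lipid-associated macrophage genes 1 was at least 2-fold higher and 0 were lower, with a median of -0.31, and Apoe, the main apolipoprotein of macrophages, held 22018 against 41296 CPM. Of 18 inflammatory cytokine genes 3 were at least 2-fold higher and 1 lower, which was the chemokine Ccl12 at 192 against 403 CPM. Tnf held 133 against 64.5 CPM and Il1b 3691 against 3270 CPM. Proliferation genes had 0 of 20 past 2-fold in either direction, and cholesterol genes 0 of 25. Cytotoxic genes were at least 2-fold higher in 16 of 19 cases in macrophages, where T cell receptor genes Trbc1 and Trbc2 and the granule gene Nkg7 together stood at 23.9 CPM against 3.18 CPM, and for Gzmb the free-RNA estimate exceeded the whole level in both libraries (117% and 162%).

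The difference spread over the cells of the class. The median macrophage held 43.9 interferon gamma response UMIs per 10000 UMIs with KO marrow and 6.35 with WT marrow, and 90% of WT-marrow macrophages lay below 24.4. For MHC class II genes the medians were 405 against 28.7 per 10000, with the middle 80% of cells between 119 and 714 with KO marrow and between 8.43 and 462 with WT marrow. Resident-type genes had medians of 17.2 against 48.3. The ranges of the libraries overlapped for all 3 lists.

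**Figure D4:**
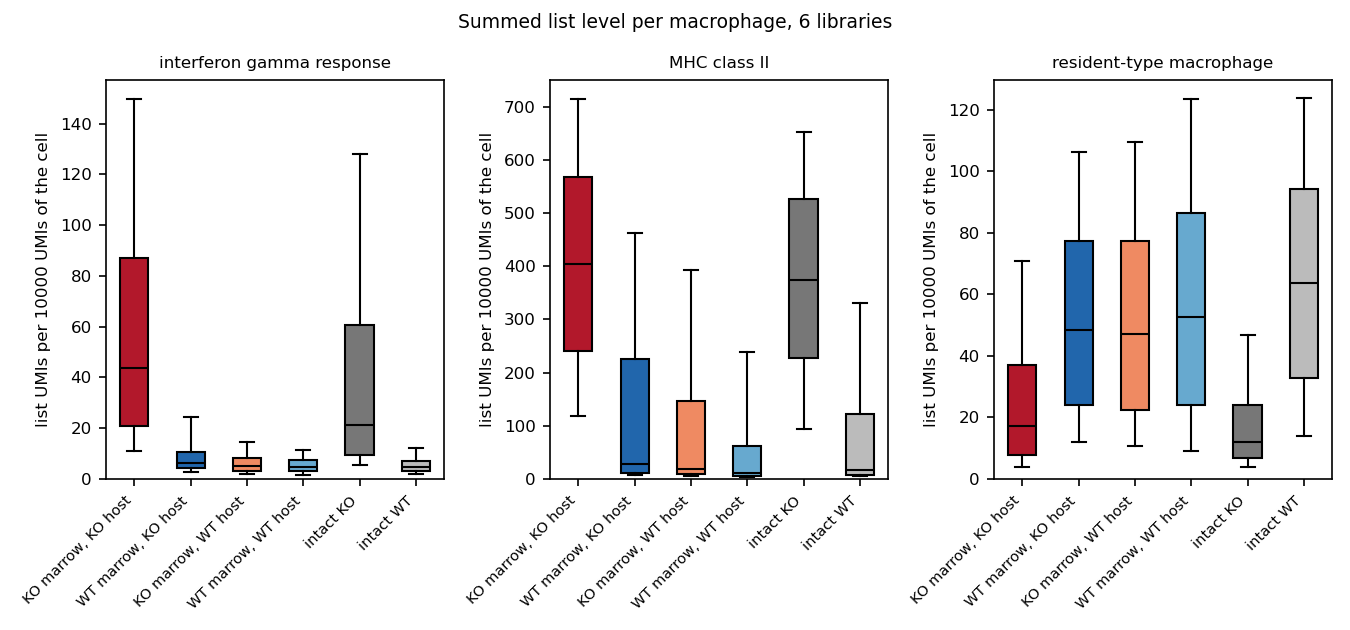
Summed level of 3 gene lists per macrophage, in list UMIs per 10000 UMIs of the cell, for KO and WT marrow in KO hosts, KO and WT marrow in WT hosts and intact KO and WT mice. Boxes span the middle 50% of cells with the median and whiskers the middle 80%; the interferon gamma response median is 43.9 with KO marrow in KO hosts and 6.35 with WT marrow in KO hosts.

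Cxcl9 and Fcrls were also tallied cell by cell. With each cell thinned to 5000 UMIs, which left 3776 KO-marrow and 4017 WT-marrow macrophages, 47.4% with KO marrow and 2.54% with WT marrow had a UMI of Cxcl9 and none of Fcrls. Fcrls without Cxcl9 was found in 7.52% with KO marrow and 72.5% with WT marrow. Both genes were found in 19.3% and 8.44%, and neither in 25.9% and 16.6%. With KO and WT marrow in WT hosts the Fcrls-only share was 68.4% and 74.8%, and in intact KO and WT mice 14.7% and 80.3%.

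Depth and free RNA bear on such shares, and macrophages held a median of 13785 UMIs with KO marrow and 19001.5 with WT marrow. Cxcl9 was seen in 67.4% (65.9 to 68.9) of thinned macrophages with KO marrow and in 10.7% (9.77 to 11.7) with WT marrow, and at the same depth in 19.0% and 6.58% of CD8 T cells, which should lack it. The WT-marrow CD8 share has a wide interval (2.17 to 14.7), which holds the macrophage share. These shares came from a separate random thinning, so they differ slightly from the sums of the tally above. Unthinned, the macrophage shares were 78.1% and 20.9%. Nos2 was seen in 20.8% with KO marrow and 2.12% with WT marrow, against 1.08% of CD8 T cells with KO marrow and 0 of 76 with WT marrow (upper bound 4.74%). The estimated free-RNA share of macrophage UMIs was 4.71% with KO marrow and 6.08% with WT marrow.

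In the WT-host pair the median macrophage ratios were smaller. The interferon gamma response median log2 ratio was 0.29 there, the MHC class II median 0.62, the class I median 0.18 and the resident-type median -0.14. In the intact pair they were 2.63, 1.62, 1.20 and -2.03. Cxcl9 stood at 117 CPM with KO marrow and 28.2 CPM with WT marrow in WT hosts, and Fcrls at 788 and 927 CPM. Nos2 was 13.7 CPM with KO marrow and 17.8 CPM with WT marrow in WT hosts. Retnla was 15.6 CPM against 0.187 CPM in WT hosts and 9.01 against 0.243 CPM in the intact pair, the same direction in all 3 pairs. The KO-host and WT-host pairs share no library, and the difference between them was not tested.

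Summed over the class, CD8 T cells with KO marrow carried more transcript of several granzymes and less of most naive and memory genes. The WT-marrow side holds 82 cells, and single cells weigh heavily in it. Of 8724 genes, 759 (8.7%) differed at least 2-fold, 471 of them higher (5.4%) and 288 lower (3.3%), and the counting interval excluded equality for 239 of the higher and 265 of the lower genes. Of 21 cytotoxic genes 7 were at least 2-fold higher and 2 lower, with a median log2 ratio of 0.38. Of 17 naive and memory genes 0 were at least 2-fold higher and 14 lower, with a median of -1.75. Per cell, on the scale used for macrophages above, the libraries overlapped for both lists. The cytotoxic medians were 98.4 with KO marrow and 86.4 with WT marrow. The KO-marrow quartiles, 63.2 and 164, lay between the WT-marrow quartiles, 30.65 and 191. The naive and memory medians were 5.65 against 8.08, with quartiles of 3.08 and 9.34 against 4.94 and 19.9.

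Gzmb, the main granzyme that triggers death of target cells, stood at 2291 CPM with KO marrow and 799 CPM with WT marrow, a log2 ratio of 1.52 (1.41 to 1.63), in 892 of 1177 and 46 of 82 cells. Gzmf, a granzyme of strongly activated mouse T cells, held 2195 CPM in 389 cells against 299 CPM in 5 cells, a log2 ratio of 2.87 (2.69 to 3.06). Gzmd and Gzme held 1060 against 230 CPM and 700 against 225 CPM, but 1 cell gave 59.5% and 51.8% of their UMIs in the WT-marrow library. Perforin, encoded by Prf1, held 821 against 559 CPM, a log2 ratio of 0.56. Gzma went the other way, with 67.9 against 176 CPM, where 1 cell gave 57.7% of the WT-marrow UMIs.

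Irf8, induced in activated CD8 T cells, stood at 683 CPM with KO marrow and 140 CPM with WT marrow, a log2 ratio of 2.28 (2.02 to 2.56). Serpinb9b and Serpinb9, inhibitors that shield killer cells from granzymes, held 292 against 79.0 CPM and 441 against 208 CPM. Spp1, the osteopontin gene, held 1759 against 579 CPM, with 4.79% and 22.8% of the level estimated as free RNA. The cytokine gene Ifng was lower with KO marrow at 203 against 370 CPM, a log2 ratio of -0.86 (-1.04 to -0.69), and the chemokines Ccl3 and Ccl5 stood at 125 against 407 CPM and 1916 against 3518 CPM. The ligand Fasl was near level at 116 against 119 CPM.

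Inhibitory receptor genes did not share a direction, with 1 of 23 at least 2-fold higher and 3 lower and a median of 0.11. Pdcd1, the PD-1 gene, stood at 449 CPM with KO marrow and 387 CPM with WT marrow, and Havcr2, the TIM-3 gene, at 107 against 68.4 CPM. Lag3 held 101 against 81.4 CPM with an interval of the log2 ratio from -0.04 to 0.68. Ctla4 held 135 against 224 CPM and the exhaustion-associated factor Tox 111 against 131 CPM. The 1 gene past 2-fold above was Tigit, at 14.8 against 5.90 CPM on 5 UMIs in the WT-marrow library.

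Of the naive and memory genes, Tcf7, a factor of naive and stem-like T cells, stood at 6.25 CPM with KO marrow and 75.5 CPM with WT marrow, a log2 ratio of -3.59 (-4.13 to -3.06). S1pr1, the receptor for leaving tissue, held 4.66 against 66.0 CPM and Lef1, a partner of Tcf7, 7.10 against 56.6 CPM. Klf2, which drives S1pr1, held 63.5 against 413 CPM. Dapl1 held 10.4 against 158 CPM. Il7r, the receptor for interleukin 7, was on the higher side at 197 against 151 CPM, and Cd27 at 162 against 145 CPM.

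**Figure D5:**
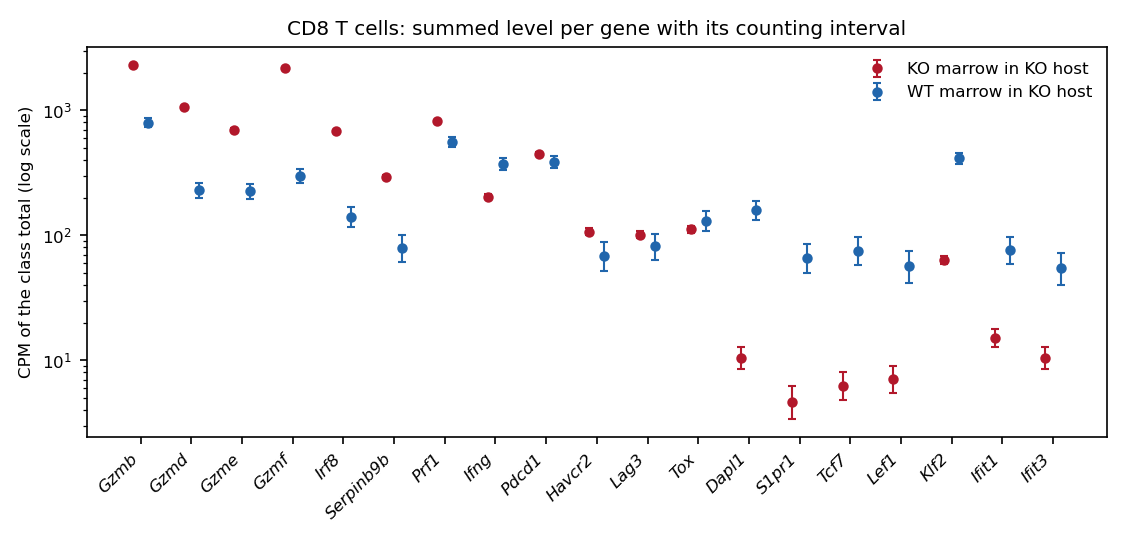
Level of 19 genes in CD8 T cells with KO and WT marrow in KO hosts, in CPM of the class total (logarithmic axis), with 95% counting intervals. The 4 granzymes plotted stand higher with KO marrow (Gzmb 2291 against 799 CPM), checkpoint receptors lie close together (Pdcd1 449 against 387 CPM), and naive and memory genes stand lower (Tcf7 6.25 against 75.5 CPM).

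The make-up of the class differed as well. With cells thinned to 2000 UMIs, 4.69% of KO-marrow CD8 T cells (53 of 1131, interval 3.53 to 6.09) and 24.4% of WT-marrow CD8 T cells (20 of 82, 15.6 to 35.1) had a UMI of a naive or memory gene and none of an inhibitory receptor. Cells with inhibitory receptors alone were 61.8% (58.9 to 64.7) and 52.4% (41.1 to 63.6), with overlapping intervals. Lef1 was seen in 1.77% with KO marrow and 12.2% with WT marrow, against 0.0251% of macrophages with KO marrow and 0 of 4117 with WT marrow (upper bound 0.0896%) at the same depth.

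Type I interferon response genes summed over CD8 T cells were lower with KO marrow in 13 of 13 measured cases. Of these, 6 were at least 2-fold lower, and the list median was -0.79. The median log2 ratio of all genes in the class was 0.05. On the per-cell scale used for macrophages above, the median CD8 T cell held 2.60 with KO marrow and 3.01 with WT marrow. The quartiles, 1.32 and 4.70 against 1.58 and 5.98, largely overlapped. Whether a few WT-marrow cells set the list median was not tested. Ifit1, an antiviral RNA-binding protein gene, held 15.2 against 76.6 CPM and Rsad2, which encodes viperin, 7.63 against 40.1 CPM, but 1 cell gave 63.1% and 61.8% of their WT-marrow UMIs. Isg15 held 106 against 172 CPM. MHC class I genes had 0 of 20 past 2-fold in either direction in CD8 T cells, against 13 of 20 in macrophages. Proliferation genes had 0 of 20 past 2-fold, with the cycling marker Mki67 at 169 against 249 CPM.

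In WT hosts the naive and memory list ran the other way in CD8 T cells, with a median log2 ratio of 1.13. Tcf7 stood at 127 CPM with KO marrow and 52.1 CPM with WT marrow there, and Klf2 at 780 and 345 CPM. The share of CD8 T cells with naive or memory genes and no inhibitory receptor was 45.8% and 21.4% in WT hosts. Gzmb stood at 907 and 1894 CPM in WT hosts. In the intact pair the list median was -1.11. These ratios were not tested against each other.

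Neutrophils with KO marrow carried more interferon gamma response transcript. Of 3791 genes measured in 514 and 191 cells, 274 (7.23%) differed at least 2-fold, 160 higher (4.22%) and 114 lower (3.01%). Of 19 interferon gamma response genes 16 were at least 2-fold higher and 0 lower, with a median of 2.24. Free RNA was estimated at 10.8% of UMIs with KO marrow and 11.9% with WT marrow. Less this share the median was 1.74 over 17 genes. Genes whose level was nearly all free RNA by the estimate left that set, so the medians cover different genes. Gbp2 stood at 1319 CPM with KO marrow and 85.9 CPM with WT marrow, a log2 ratio of 3.94 (3.56 to 4.35), in 240 and 28 cells. Irf1 held 648 against 73.9 CPM and Gbp5 276 against 21.1 CPM. Cxcl9 held 273 against 15.1 CPM, of which free RNA was estimated at 57.8% and 121%.

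MHC class I genes in neutrophils were at least 2-fold higher in 12 of 17 cases, with Tap1 at 238 against 51.3 CPM and H2-K1 at 1701 against 767 CPM. Tnf held 364 against 82.9 CPM and the adhesion receptor Icam1 397 against 176 CPM. The neutrophil state list had 2 of 22 higher and 3 lower, a median of -0.11. Of its members that also defined the gate, the granule alarmins S100a8 and S100a9 and the chemokine receptor Cxcr2 were close, at 26228 against 27856, 33630 against 37478 and 660 against 644 CPM, while Retnlg held 895 against 2478 CPM. The prostaglandin synthase Ptgs2, not a gate gene, held 1281 against 2655 CPM. Hilpda, a hypoxia-induced lipid droplet gene, held 819 against 2278 CPM. Acp5 was far above at 1285 against 22.6 CPM, from 33 cells with KO marrow of which 1 gave 31.6%.

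The mesenchymal-like cells, whose origin was not tested, also differed, although Mtdh did not differ 2-fold between them. Of 10355 genes, 418 (4.04%) differed at least 2-fold, 225 higher (2.17%) and 193 lower (1.86%). The leukocyte gene Ptprc stood at 17.6 CPM with KO marrow and 16.9 CPM with WT marrow in them, against 393 and 391 CPM in macrophages, and the free-RNA estimate was 94.8% and 114% of that level. Interferon gamma response genes were at least 2-fold higher in 22 of 23 cases, with a median of 2.67. Iigp1, an interferon-inducible GTPase, stood at 548 CPM against 47.7 CPM, a log2 ratio of 3.52 (3.39 to 3.65), and thinned to 5000 UMIs it was seen in 56.4% (49.7 to 63.0) with KO marrow and 6.69% (4.29 to 9.86) with WT marrow.

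Gbp2 held 775 against 90.9 CPM in these cells and Cxcl10 869 against 162 CPM. MHC class I genes were at least 2-fold higher in 14 of 20 cases with a median of 1.35, among them H2-K1 at 2576 against 725 CPM, B2m at 3051 against 1264 CPM and Tap1 at 74.7 against 14.2 CPM. Type I interferon response genes were at least 2-fold higher in 14 of 18 cases with a median of 1.35, with the tetherin gene Bst2 at 845 against 266 CPM. The keratins Krt8 and Krt18, which are gate genes, and Mki67 were within 2-fold, at 963 against 734, 402 against 312 and 57.2 against 62.9 CPM. Granzyme genes were also among the furthest above, and for each of the 6 measured 1 cell gave between 50.5% and 97.0% of the KO-marrow UMIs.

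In WT hosts the mesenchymal-like interferon gamma response median was 0.44 and in the intact pair 3.16. Iigp1 stood at 18.1 CPM with KO marrow and 4.83 CPM with WT marrow in WT hosts, and at 643 and 5.99 CPM in intact KO and WT mice. In neutrophils the WT-host median was 0.31.

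B cells, with 81 cells with KO marrow and 55 with WT marrow, had 94 of 1089 genes (8.63%) past 2-fold, 65 higher (5.97%) and 29 lower (2.66%). Ly6a stood at 968 CPM with KO marrow and 163 CPM with WT marrow. Of 6 measured antigen receptor induced genes 4 were at least 2-fold lower and 0 higher, with a median log2 ratio of -1.09, among them Nr4a1 at 112 against 393 CPM. The activation marker Cd83 held 355 against 984 CPM. Klf2 held 721 against 2060 CPM and Gpr183, which positions B cells in follicles, 183 against 602 CPM. The immunoglobulin gene Ighm held 2354 against 2121 CPM, H2-Aa 4466 against 5266 CPM and Cd74 12646 against 11547 CPM.

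Classes with fewer than 50 cells on a side are given as values, since 1 cell can set them. Each of them held more UMIs with KO marrow, so the minimum of 50 UMIs admits genes higher with KO marrow more readily. Monocytes, 241 against 29 cells, had 361 of 4170 genes past 2-fold (8.66%), 298 higher (7.15%) and 63 lower (1.51%), with 9 of 21 interferon gamma response genes among the higher and 1 among the lower. The counting interval excluded equality for 252 of the 298 higher genes and for all 63 lower genes. Irf1 stood at 505 CPM with KO marrow and 86.9 CPM with WT marrow in them and Tnf at 241 against 17.98 CPM, while Rsad2 stood at 641 against 2056 CPM, and 1 cell gave 56.1% of its WT-marrow UMIs. Ly6c2, the marker of inflammatory monocytes and a gate gene, held 1197 against 947 CPM.

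Type 1 dendritic cells, 52 against 27 cells, had 161 of 3342 genes (4.82%) past 2-fold, 117 higher (3.5%) and 44 lower (1.32%). Cxcl9 stood at 926 CPM with KO marrow and 76.4 CPM with WT marrow in them, the granzyme inhibitor Serpinb9 at 284 against 51.5 CPM and Gpr183 at 38.1 against 320 CPM, with the gate gene Xcr1 at 486 against 561 CPM. In mature dendritic cells, 90 against 37 cells, 181 of 2733 genes (6.62%) passed 2-fold, 147 higher (5.38%) and 34 lower (1.24%). The chemokines Ccl17 and Ccl22, which draw regulatory and type 2 T cells, stood at 799 against 3064 CPM and 1752 against 4229 CPM. Ccl22 and Ccr7 are gate genes of the class. Ccr7 held 3897 against 3246 CPM and Tap1 269 against 91.6 CPM there.

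NK cells, 65 against 25 cells, had 137 of 2650 genes (5.17%) past 2-fold, 112 higher (4.23%) and 25 lower (0.943%). Gzma stood at 3865 CPM with KO marrow and 699 CPM with WT marrow in them, while Gzmb was level at 3632 against 3640 CPM and Prf1 held 933 against 521 CPM. In CD4 T cells, 68 against 29 cells, 217 of 1663 genes (13%) passed 2-fold, 195 higher (11.7%) and 22 lower (1.32%). The median log2 ratio of all measured genes was 0.27 in that class. The interferon gene Ifng had 69 UMIs with KO marrow and 0 with WT marrow, at least 11.5-fold higher with a floor of 3 counts in the WT-marrow class, from 12 cells of which 1 gave 40.6%. Klf2 held 271 against 1048 CPM and Tcf7 65.8 against 171 CPM in CD4 T cells. The remaining T cells, left over where the CD8, CD4, Foxp3 and gamma-delta counts gave no single call, were 153 against 32 cells and had 272 of 2648 genes (10.3%) past 2-fold, 221 higher (8.35%) and 51 lower (1.93%).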

How the data were processed

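Droplet 3' single-cell libraries of CD45-sorted tumour cells were used as deposited count matrices of UMIs per gene and cell, which the authors made with Cell Ranger 6.1.1 for the 4 transplanted libraries and 7.0.1 for the intact pair, aligned to mm10, per the file headers. The submitters' processing notes also name Seurat. The 2 KO-host libraries held 96375286 and 121627871 UMIs. The 30406 genes shared by all files were used.

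Cells needed at least 500 UMIs, 200 genes and at most 15% mitochondrial UMIs. Scrublet's automatic threshold called 2 and 4 cells, so the top 6% by score were left out of each library (489 and 345 cells). Classes were gated by UMIs of marker genes, and the thresholds were set after looking at marker levels. UMIs were summed per class and scaled to CPM. Genes needed 50 UMIs in both libraries together, and a 2-fold ratio was counted. Where the 2 sides of a class held unequal UMIs, this minimum admits genes higher on the side with more UMIs more readily.

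With 1 library a side no test was run. Shares have exact Clopper-Pearson intervals, levels exact Poisson intervals, ratios of levels exact conditional binomial intervals and ratios of shares Katz intervals, all at 95% and covering counting error only. A count of 0 was set to a floor of 3 counts. Free RNA was estimated from genes a class should lack. The scripts for ratios and intervals were tested on simulated data.

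Named genes were up to 10 per direction and class, ordered by the interval bound nearest to 1, with at least 10 cells, up to 6 per list with the largest ratios, and Mtdh. Other members are named as list context after their values were seen. The members and lists were chosen with earlier results of these data known. Alternatives covered cell filters, doublet removal, gates, scaling, minimum UMIs, fold and means over cells. Values for classes of 20 to 50 cells, levels less free RNA in classes other than CD8 T cells, and leaving out genes of which 1 cell gave over 25% of UMIs were added after seeing the data. Analyses used Python 3.11.15, numpy 2.4.6, scipy 1.17.1, pandas 2.3.3, scanpy 1.11.5, matplotlib 3.10.9, and R 4.3.3 with edgeR 4.0.16 for scaling factors. Results for a few genes are not reported here.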

Additional observations from a re-analysis of the deposited data

Results flagged for a closer look

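Some ratios of KO over WT marrow ran in opposite directions in KO hosts and in WT hosts. The log2 ratio of the monocyte share was 2.55 in KO hosts and -0.739 in WT hosts. The WT-host value rests on 26 cells with KO marrow and 48 with WT marrow, and its interval (-1.43 to -0.053) nearly reached equality. For neutrophils it was 0.926 in KO hosts and -0.585 in WT hosts. NK cells gave 0.877 in KO hosts and -0.855 in WT hosts, on 65 and 25 cells in KO hosts and 22 and 44 cells in WT hosts. The NK interval in WT hosts (-1.59 to -0.118) also came near equality. Mesenchymal-like cells ran the other way, with -1.13 in KO hosts and 0.421 in WT hosts. In CD8 T cells the median log2 ratio of the naive and memory genes was -1.75 in KO hosts and 1.13 in WT hosts. Each host has 1 library per marrow, so these differences were not tested.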

How the results depend on the processing

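No paired analysis was possible because each group is 1 library and the labels give no replicate numbers. For the same reason no replicate could be left out. Of the values under alternatives that answer a comparison, 208 stayed within the limit and 25 moved. The limit was the main counting interval for share ratios and a factor of 1.5 for gene counts. Of the list medians and single CD8 T cell genes, held to their main intervals, 85 stayed and 14 moved. In macrophages TMM scaling moved the MHC class II median to 1.53, the class I median to 1.37 and the resident-type median to -1.11. All 53 values of the share ratios under alternatives kept the sign of the main value, but they reuse largely the same cells. The log2 ratio of the macrophage share moved to -0.43 with classes set by neighbour vote and to -0.51 with gate thresholds doubled. With no minimum of UMIs, the genes at least 2-fold higher and lower became 1390 and 1559 in macrophages, 983 and 968 in neutrophils, 1257 and 727 in mesenchymal-like cells and 1356 and 1016 in B cells, and those lower in CD8 T cells 1411. With a fold of 1.5 they became 1101 and 1501 in macrophages, 1234 and 929 in CD8 T cells, 402 and 453 in neutrophils, 576 and 611 in mesenchymal-like cells and 162 and 112 in B cells. Other moved counts were 339 lower genes in mesenchymal-like cells by the mean over cells and 138 higher genes in B cells without doublet removal. The last alternatives were chosen after seeing the data: less free RNA, a choice planned for CD8 T cells alone, 254 genes were higher in neutrophils, and without genes led by 1 cell, 39 were higher in B cells. The balance of higher against lower genes is not stable: in macrophages it turned from 593 and 643 to 656 and 540 with TMM scaling and 667 and 532 with median-of-ratios scaling, and in neutrophils from 160 and 114 to 124 and 154 by the mean over cells. It also turned in CD8 T cells with no minimum of UMIs (667 higher), in neutrophils and mesenchymal-like cells at a fold of 1.5, and in mesenchymal-like cells by the mean over cells (298 higher) and by neighbour vote (231 and 244). A lower threshold or minimum admits more genes by construction; for the other moves the cause was not tested. The 82 CD8 T cells and 191 neutrophils with WT marrow limit the precision of those classes.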

Other observations

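A few cells combined high Chil3 (at least 50 UMIs per 10000) with at least 2 UMIs of Car4, a combination chosen after the values were seen and left unnamed. There were 7 such cells with KO marrow in KO hosts (0.0915%, interval 0.0368 to 0.188) and 29 with WT marrow in KO hosts (0.537%, 0.360 to 0.770). In WT hosts there were 2 with KO marrow and 74 with WT marrow, and in intact mice 27 in KO and 66 in WT. Most passed no gate, 6 of 7 with KO marrow and 23 of 29 with WT marrow in KO hosts. In KO hosts they held 0 UMIs of Mtdh with KO marrow and 119 UMIs, or 167 CPM, with WT marrow. The 7 KO-marrow cells are too few for a 0 to set them apart from other KO-marrow cells.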
